A study of Mus musculus with 9 samples.

Results

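The genes described are 6 that make, load and break down the neurotransmitter GABA or set the chloride gradient through which it acts: Gad1, Gad2, Slc32a1, Abat, Slc12a2 and Slc12a5. They were taken by symbol from count tables of 23319 genes, and all 6 were present. RNA had been sequenced from green fluorescent cells of mouse cortex at postnatal day 5, in 9 libraries from 3 Cre lines that all carry the fluorescent reporter Ai47. Nkx2.1-CreER;Ai47 mice had tamoxifen on embryonic day 17, while the labels give no treatment for SOM-Cre;Ai47 and VIP-Cre;Ai47 mice. Each line, called Nkx2.1, SOM and VIP here, gave 3 libraries. For a library, 150 fluorescent cells were picked by hand from strips of cortical layer 2/3 of the medial prefrontal and anterior cingulate areas. The Cre driver decides which cells were green, and since only the Nkx2.1 line had both CreER and tamoxifen, line and tamoxifen cannot be told apart. The labels do not state whether libraries of a line are from different animals, and the p-values given here cover the spread among these libraries alone, which may be technical.

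GABA is made from glutamate by the glutamic acid decarboxylases, of which GAD67, from Gad1, is spread through the neuron and GAD65, from Gad2, is concentrated at synaptic vesicles. The vesicular transporter VGAT, from Slc32a1, loads GABA into vesicles using the proton gradient of the vesicular ATPase, and the mitochondrial GABA transaminase, from Abat, breaks it down. What GABA does to a target neuron depends on chloride: NKCC1, from Slc12a2, carries chloride in, and KCC2, from Slc12a5, carries it out. In the immature rodent cortex NKCC1 is known to prevail, and KCC2 increases as neurons mature.

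The coordinates are of the mouse build GRCm38, in which all 6 genes lie on the plus strand. Gad1 is at chr2:70553072-70602014, Gad2 at chr2:22622205-22693874, Slc32a1 at chr2:158610767-158615748 and Slc12a5 at chr2:164960802-164999731. Abat is at chr16:8513429-8621568. An antisense gene overlaps the start of Gad1 and another overlaps Slc32a1 in the annotation. The strand setting of the counting is not given in the sources used here, so reads of these genes and of their antisense partners cannot be told apart. The promoter windows of 4 of the genes, 250 bases before to 50 bases after a RefSeq start in GRCm38.p6, are shown because they belong to the synthesis pair whose ratio is compared between lines and to the genes that were lowest in the Nkx2.1 line. The capitals mark matches to the motifs named after the sequences.
Gad1 (chr2:70561879-70562178, plus strand): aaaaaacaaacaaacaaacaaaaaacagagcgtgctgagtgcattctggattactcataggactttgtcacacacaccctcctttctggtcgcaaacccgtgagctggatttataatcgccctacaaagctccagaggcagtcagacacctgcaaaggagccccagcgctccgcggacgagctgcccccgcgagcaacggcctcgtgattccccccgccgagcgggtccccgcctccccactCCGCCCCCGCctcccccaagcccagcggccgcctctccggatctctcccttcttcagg
Gad2 (chr2:22622077-22622376, plus strand): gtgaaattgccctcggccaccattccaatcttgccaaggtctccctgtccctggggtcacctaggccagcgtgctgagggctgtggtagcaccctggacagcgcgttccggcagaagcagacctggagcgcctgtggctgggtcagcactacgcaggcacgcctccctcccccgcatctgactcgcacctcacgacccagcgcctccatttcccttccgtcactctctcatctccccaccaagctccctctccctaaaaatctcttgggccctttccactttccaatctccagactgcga
Slc32a1 (chr2:158610508-158610807, plus strand): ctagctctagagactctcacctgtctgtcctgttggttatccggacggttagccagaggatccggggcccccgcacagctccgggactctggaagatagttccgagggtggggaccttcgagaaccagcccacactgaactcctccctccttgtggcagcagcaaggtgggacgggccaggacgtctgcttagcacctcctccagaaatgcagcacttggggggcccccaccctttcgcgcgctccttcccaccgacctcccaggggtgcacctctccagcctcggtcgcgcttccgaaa
Slc12a5, first start (chr2:164960596-164960895, plus strand): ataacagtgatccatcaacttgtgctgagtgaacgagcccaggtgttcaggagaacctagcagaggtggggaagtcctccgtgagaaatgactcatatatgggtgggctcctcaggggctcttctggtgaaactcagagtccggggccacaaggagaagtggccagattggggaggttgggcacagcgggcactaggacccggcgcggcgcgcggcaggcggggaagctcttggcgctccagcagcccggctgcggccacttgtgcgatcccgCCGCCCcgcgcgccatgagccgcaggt
Slc12a5, second start (chr2:164967738-164968037, plus strand): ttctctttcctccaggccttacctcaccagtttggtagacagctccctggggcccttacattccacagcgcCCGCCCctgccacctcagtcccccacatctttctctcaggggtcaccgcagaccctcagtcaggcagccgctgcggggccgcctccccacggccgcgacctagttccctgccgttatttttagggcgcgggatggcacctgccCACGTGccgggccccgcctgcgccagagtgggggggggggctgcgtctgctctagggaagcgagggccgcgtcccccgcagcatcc
The motifs searched on both strands were a homeodomain core TAATTA, a CRE TGACGTCA, an E-box CACGTG, an EGR site GCGGGGGCG and a GC box GGGCGG. Positions run from 0 at the start base and give the first base of a match on the gene's strand. Gad1 held an EGR match at -7 that overlaps a GC box at -8. The first Slc12a5 start had a GC box at 23, and the second had an E-box at -36 and a GC box at -179. No match to these letters was in the Gad2 or Slc32a1 window. Of 32851 mouse promoters in the table, 5.29% held the homeodomain core, 1.79% the CRE, 7.15% the E-box, 2.91% the EGR site and 35.7% the GC box. The windows were 60% GC for Gad1, 61.3% for Gad2, 63.3% for Slc32a1 and 63.7% and 68.3% for the Slc12a5 starts, against a median of 52.7% over all promoters.

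Levels are given as CPM, read counts relative to all reads in genes after TMM normalization. The libraries held 6484488 to 12465997 reads in genes, and 3 reads were worth 0.246 to 0.444 CPM. A read was seen for 8180 to 10576 genes in Nkx2.1 libraries, for 10923 to 11490 in SOM libraries and for 9672 to 10927 in VIP libraries. The line genes went with the labels: the transcription factor Lhx6 was at 881 to 1770 CPM in Nkx2.1 libraries and 604 to 816 CPM in SOM libraries, against at most 0.245 CPM in VIP libraries, Sst was at 1445 to 2163 CPM in SOM libraries and Vip at 410 to 799 CPM in VIP libraries. Summed astrocyte markers came to 2217, 337 and 87.5 CPM in the Nkx2.1 libraries, against 13.7 to 80.1 CPM in SOM and 2.87 to 87.2 CPM in VIP libraries. Of these 9 markers, 2 to 7 had a read in an Nkx2.1 library, led by Slc1a3 at 1649 CPM in replicate 1, and Gjb6 was at 0 throughout. Summed oligodendrocyte lineage markers, 7 genes, were 259 to 302 CPM in Nkx2.1, 96.6 to 194 CPM in SOM and 1.72 to 98.3 CPM in VIP libraries. Excitatory neuron markers were at most 116 CPM in Nkx2.1, 9.76 CPM in SOM and 156 CPM in VIP libraries, and microglial and endothelial markers at most 17.8 and 17.6 CPM in any library. The microglial marker Cx3cr1, at 0 throughout, is not read as silent. It lies on the minus strand of chromosome 9, where 93.1% of 522 protein-coding genes were at 0 in all 9 libraries.

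The synthesis enzymes were abundant in all lines. Gad1 was at 965, 1877 and 918 CPM in the Nkx2.1 libraries, at 1002, 1217 and 1322 CPM in the SOM libraries and at 1943, 959 and 1499.5 CPM in the VIP libraries. The 3 lines overlapped, and the highest library of all was only 2.12 times the lowest. By mean level the order was VIP (1467 ± 493 CPM), Nkx2.1 (1253 ± 541 CPM) and SOM (1180.4 ± 163 CPM; SD, n = 3 each), and no neighbours in it differed beyond their spread. In bulk libraries of this kind fewer cells of a type and less RNA per cell cannot be told apart. The fitted log2 fold change was 0.09 ± 0.35 (SE) for Nkx2.1 against SOM, with an adjusted p of 0.989 in edgeR's quasi-likelihood test over 10728 genes. For Nkx2.1 against VIP it was -0.23 ± 0.35 (adjusted p = 0.859, edgeR), and for SOM against VIP -0.31 ± 0.35 (adjusted p = 0.99963, edgeR). Without scaling beyond reads in genes the first of these turned to -0.060. Gad1 ranked 43 by mean CPM among the 10728 genes tested.

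Gad2 was at 309.6, 465 and 271 CPM in the Nkx2.1 libraries, at 757, 414 and 543 CPM in the SOM libraries and at 471, 275 and 182 CPM in the VIP libraries. The SOM libraries held the highest values, and 1 SOM library lay within the range of both other lines. The order of means was SOM (571 ± 173 CPM), Nkx2.1 (349 ± 103 CPM) and VIP (309 ± 147 CPM; SD, n = 3 each), and the ranges of neighbours in it overlapped. Gad2 was lower in Nkx2.1 than in SOM by the fit, at a log2 fold change of -0.71 ± 0.46, but did not pass the threshold of 0.05 (adjusted p = 0.665, edgeR). SOM against VIP had 0.89 ± 0.46 (unadjusted p = 0.0832, adjusted p = 0.874, edgeR), and Nkx2.1 against VIP 0.17 ± 0.46 (adjusted p = 0.927, edgeR). Per kilobase of principal transcript, the mean level of Gad1 was 373 CPM for Nkx2.1, 352 CPM for SOM and 437 CPM for VIP, and that of Gad2 60.7 CPM for Nkx2.1, 99.5 CPM for SOM and 53.9 CPM for VIP, so that Gad1 was the more abundant per length in every line.

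The balance between the 2 decarboxylases was read as a ratio within each library. Gad1 reads were 3.12, 4.03 and 3.38 times the Gad2 reads in Nkx2.1, 1.32, 2.94 and 2.43 times in SOM and 4.13, 3.48 and 8.24 times in VIP. Each SOM ratio was below every Nkx2.1 and every VIP ratio, while the Nkx2.1 and VIP ratios overlapped. The mean log2 ratio was 1.80 ± 0.19 in Nkx2.1, 1.08 ± 0.60 in SOM and 2.30 ± 0.66 in VIP (SD, n = 3 each). An exact permutation test for any difference among the 3 lines, over all arrangements of the libraries, gave p = 0.0143. After adjustment over the 3 ratios tested it was 0.0429. Leaving out any of 7 of the 9 libraries, all but SOM replicate 2 and VIP replicate 2, ended that call, with adjusted exact permutation p between 0.0214 and 0.327 over all 9, and so did permuting within replicate numbers (adjusted exact p = 0.167). The ratio was chosen with the mean levels of both genes known, so its p is not independent evidence. Between pairs of lines the differences in log2 ratio were 0.72 for Nkx2.1 against SOM, -0.49 for Nkx2.1 against VIP and -1.21 for SOM against VIP. Their exact permutation p-values were 0.1, 0.2 and 0.1, where 0.1 is the smallest that 3 against 3 libraries allow, and all were 0.36 after adjustment over 9 pairs. Each of the 3 ratios is read within a library and so does not move with library scaling.

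**Figure D1:**
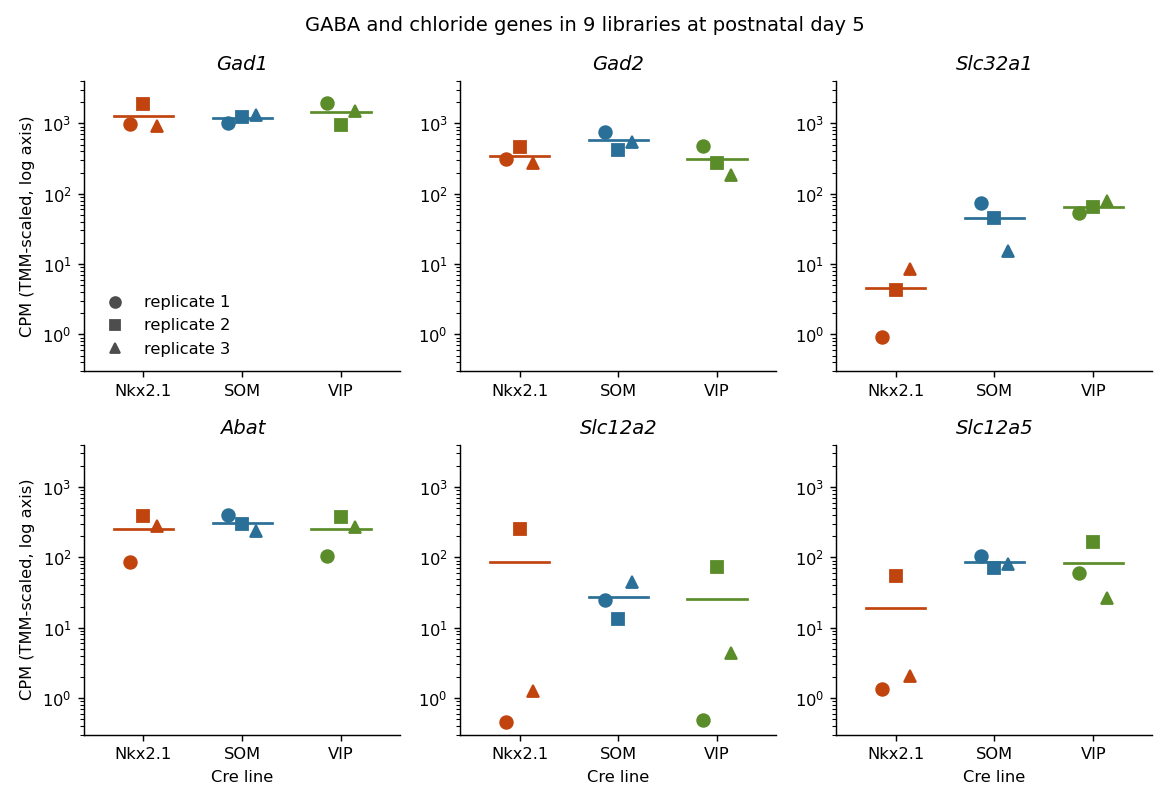
Levels of the 6 genes, as CPM after TMM normalization on a log axis, with 1 point per library (circle, square and triangle for replicates 1, 2 and 3) and a bar at the mean of each line. Gad1 and Gad2 lie within narrow ranges, Slc32a1 is at 0.908 to 8.36 CPM in Nkx2.1 libraries and above 15 CPM in all others, and Slc12a2 spreads from 0.454 to 252 CPM within the Nkx2.1 line.

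Slc32a1, the vesicular GABA transporter, was at 0.908, 4.32 and 8.36 CPM in the Nkx2.1 libraries, from 8, 51 and 101 reads. It was at 74.6, 44.7 and 15.2 CPM in the SOM libraries, from 703, 302 and 133 reads, and at 53.98, 65.6 and 77.5 CPM in the VIP libraries, from 440, 635 and 946 reads. All Nkx2.1 libraries lay below all SOM and all VIP libraries, and the SOM and VIP libraries overlapped. The means were 4.53 ± 3.73 CPM in Nkx2.1, 44.8 ± 29.7 CPM in SOM and 65.7 ± 11.8 CPM in VIP (SD, n = 3 each), so that the mean was 9.90-fold lower in Nkx2.1 than in SOM and 14.5-fold lower than in VIP. By the fit the log2 fold change was -3.30 ± 1.38 for Nkx2.1 against SOM (unadjusted p = 0.0372, adjusted p = 0.411, edgeR) and -3.85 ± 1.42 for Nkx2.1 against VIP (unadjusted p = 0.021, adjusted p = 0.248, edgeR). Neither passed the threshold in edgeR, while DESeq2's Wald test called both, at a log2 fold change of -3.21 (adjusted p = 0.0221) and -3.82 (adjusted p = 0.00235). For SOM against VIP the edgeR value was -0.55 ± 1.27 (adjusted p = 0.99963). With each library left out in turn the edgeR log2 fold change stayed between -4.09 and -2.72 against SOM and between -4.64 and -3.34 against VIP, with adjusted p from 0.326 to 0.689 and from 0.217 to 0.415. Astrocyte markers summed to 2217, 337 and 87.5 CPM in Nkx2.1 replicates 1, 2 and 3, against at most 87.2 CPM in SOM and VIP libraries, and Slc32a1 was lowest in replicate 1. The oligodendrocyte lineage sum was 259 to 302 CPM in Nkx2.1 libraries, above every SOM and VIP library, the highest of which was at 194 CPM. A different marker led it in each Nkx2.1 library: Cspg4 (192 CPM), Pdgfra (258 CPM) and Mbp (137 CPM) in replicates 1, 2 and 3. Of the 4 markers tested, 3 had a log2 fold change above 0 in Nkx2.1 against SOM. Mbp was below 0, at a mean of 50.6 ± 74.8 CPM in Nkx2.1 and 83.2 ± 77.0 CPM in SOM. Nkx2.1 libraries also had fewer genes with a read, at most 10576, than any SOM library, at least 10923. The VIP libraries, at 9672 to 10927, overlapped the Nkx2.1 range of 8180 to 10576. The part of these in the Slc32a1 difference was not tested.

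Across the 6 genes, edgeR called 0 of 6 in each comparison, where the share called among all genes tested was 0.0932% for Nkx2.1 against SOM, 0.308% for Nkx2.1 against VIP and 0.0746% for SOM against VIP. At an unadjusted p under 0.05, 1 of 6 was lower in Nkx2.1 against SOM and against VIP, each time Slc32a1, where 8.38% and 9.43% of all genes were lower at that level. In SOM against VIP it was 0 of 6, where 6.99% of all genes passed in either direction. DESeq2 called 1 of 6 lower in Nkx2.1 against SOM, where it called 5.48% of all genes lower, and 1 of 6 lower in Nkx2.1 against VIP, where the share was 7.46%. It called 0 of 6 in SOM against VIP, where it called 3.56% of genes in either direction. Groups that did not overlap, lower in Nkx2.1, were found for 2 of 6 genes against SOM, Slc32a1 and Slc12a5, where 14% of all genes tested did so, and for 1 of 6 against VIP, where 12.8% did. In SOM against VIP 0 of 6 separated, against 19.9% of all genes in either direction. The comparisons share libraries and are not independent of each other. A p above the threshold does not show that levels were equal at 3 libraries per line.

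**Figure D2:**
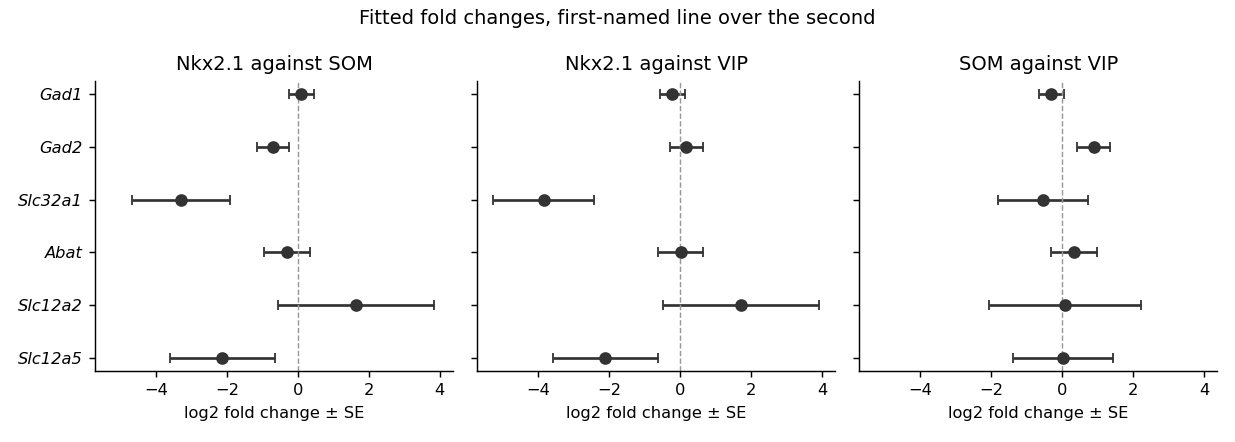
Fitted edgeR log2 fold changes of the 6 genes with bars of ± 1 SE, the first-named line over the second, 3 libraries per line. Slc32a1 is at -3.30 and -3.85 in the comparisons of Nkx2.1 with SOM and VIP, and the bars of Slc12a2 and Slc12a5 are the widest.

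Abat, whose product degrades GABA in mitochondria, was at 86.96, 390.1 and 277 CPM in the Nkx2.1 libraries, at 396, 300.2 and 240.2 CPM in the SOM libraries and at 104, 376 and 268 CPM in the VIP libraries. The lines overlapped throughout, with replicate 1 the low library in both Nkx2.1 and VIP. Means were 251 ± 153 CPM in Nkx2.1, 312 ± 78.3 CPM in SOM and 249 ± 137 CPM in VIP (SD, n = 3 each), and no neighbours in the order SOM, Nkx2.1, VIP differed beyond their spread. The log2 fold changes were -0.31 ± 0.64 for Nkx2.1 against SOM, 0.01 ± 0.64 for Nkx2.1 against VIP and 0.32 ± 0.64 for SOM against VIP, none past the threshold (adjusted p of at least 0.972, edgeR). The value against VIP was -0.15 without scaling beyond reads in genes. The ratio of Gad1 plus Gad2 reads to Abat reads, a comparison of synthesis with breakdown transcripts, was 14.6, 6.005 and 4.29 in Nkx2.1, 4.45, 5.43 and 7.76 in SOM and 23.3, 3.28 and 6.26 in VIP. These ranges overlapped, and the exact permutation test over the 3 lines gave p = 0.889. Mean Abat per kilobase of transcript was 54.2 CPM for Nkx2.1, 67.3 CPM for SOM and 53.8 CPM for VIP.

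The chloride importer Slc12a2, at 57878678 to 57946821 of chromosome 18, was at 0.454, 252 and 1.24 CPM in the Nkx2.1 libraries, from 4, 2982 and 15 reads. It was at 24.9, 13.5 and 43.9 CPM in the SOM libraries, from 235, 91 and 384 reads, and at 0.491, 72.6 and 4.34 CPM in the VIP libraries, from 4, 703 and 53 reads. Nkx2.1 replicate 2 alone held 66.7% of the 4471 Slc12a2 reads of all libraries, and only the SOM libraries lay near each other. The mean of 84.7 ± 145 CPM in Nkx2.1, against 27.4 ± 15.4 CPM in SOM and 25.8 ± 40.6 CPM in VIP (SD, n = 3 each), therefore rests on 1 library. The log2 fold changes were 1.63 ± 2.20 for Nkx2.1 against SOM, 1.71 ± 2.20 for Nkx2.1 against VIP and 0.09 ± 2.14 for SOM against VIP (adjusted p = 0.941, 0.820 and 0.99963, edgeR). Without Nkx2.1 replicate 2 the values were -4.99 against SOM and -4.90 against VIP. The VIP mean rests likewise on replicate 2, without which Nkx2.1 against VIP was 5.16 and SOM against VIP 3.51. In Nkx2.1 replicate 2 Pdgfra, a marker of oligodendrocyte precursors, was at 258 CPM, against 30.5 and 98.3 CPM in the other Nkx2.1 libraries. The summed oligodendrocyte lineage markers were 291, 259 and 302 CPM in Nkx2.1 replicates 1, 2 and 3, and their part in the Slc12a2 level was not tested.

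The chloride exporter Slc12a5 was at 1.36, 54.6 and 2.07 CPM in the Nkx2.1 libraries, from 12, 645 and 25 reads. It was at 105.7, 70.7 and 79.5 CPM in the SOM libraries, from 996, 478 and 695 reads, and at 60.1, 165 and 26.7 CPM in the VIP libraries, from 490, 1599 and 326 reads. Nkx2.1 replicates 1 and 3 were the lowest of all 9, replicate 2 lay below every SOM library, and the Nkx2.1 and VIP ranges overlapped. Means were 19.3 ± 30.5 CPM in Nkx2.1, 85.3 ± 18.2 CPM in SOM and 83.99 ± 72.2 CPM in VIP (SD, n = 3 each). The log2 fold change was -2.14 ± 1.48 for Nkx2.1 against SOM (adjusted p = 0.711, edgeR), -2.12 ± 1.48 for Nkx2.1 against VIP (adjusted p = 0.585, edgeR) and 0.02 ± 1.42 for SOM against VIP (adjusted p = 0.99963, edgeR). Without Nkx2.1 replicate 2 these were -5.62 against SOM and -5.60 against VIP, still short of the threshold (adjusted p = 0.338 and 0.168, edgeR). DESeq2 called none of these for Slc12a5, with adjusted p of 0.510, 0.399 and 0.9999.

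Slc12a2 reads were fewer than Slc12a5 reads in 8 of 9 libraries, the exception being Nkx2.1 replicate 2. The ratio of Slc12a2 to Slc12a5 reads was 0.36, 4.62 and 0.608 in Nkx2.1, 0.236, 0.191 and 0.553 in SOM and 0.00917, 0.440 and 0.164 in VIP. Per kilobase of principal transcript the ratios were 0.333, 4.27 and 0.562 in Nkx2.1, 0.218, 0.177 and 0.511 in SOM and 0.00848, 0.407 and 0.151 in VIP, and the same 8 were below 1. The mean log2 ratio of reads was 0.01 ± 1.94 in Nkx2.1, -1.77 ± 0.81 in SOM and -3.52 ± 2.90 in VIP (SD, n = 3 each), so the order was Nkx2.1, SOM, VIP with ranges that overlapped. The exact permutation test over the 3 lines gave p = 0.139, or 0.209 after adjustment over the 3 ratios. Without VIP replicate 2 the adjusted exact permutation p was 0.0214, and over the 9 libraries left out it ran up to 0.536. The differences in log2 ratio were 1.78 for Nkx2.1 against SOM, 3.53 for Nkx2.1 against VIP and 1.75 for SOM against VIP, at exact permutation p = 0.2, 0.2 and 0.4. With 1 library left out in turn the differences ran from 0.68 to 2.52, from 1.90 to 4.69 and from 0.12 to 2.91. The lowest ratio, that of VIP replicate 1, rests on 4 Slc12a2 reads. Those of Nkx2.1 replicates 1 and 3 rest on few reads of both genes, 4 and 15 of Slc12a2 against 12 and 25 of Slc12a5.

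**Figure D3:**
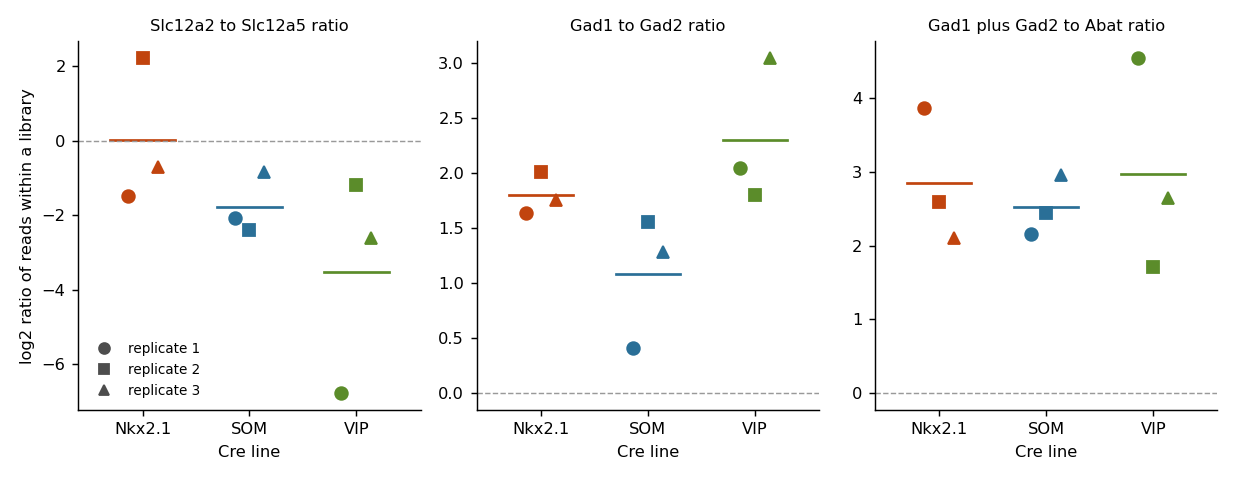
Log2 ratios of reads within each library for Slc12a2 over Slc12a5, Gad1 over Gad2, and Gad1 plus Gad2 over Abat, with 1 point per library, a bar at the mean of each line and a dashed line at equal reads. In the Gad1 to Gad2 panel all 3 SOM libraries lie below the other 6, and in the Slc12a2 to Slc12a5 panel only Nkx2.1 replicate 2 lies above the line.

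The 6 genes differed in how far the libraries of a line lay apart. The pooled within-line SD of log2(CPM + 1) was 0.461 for Gad1, 0.524 for Gad2, 0.880 for Abat, 0.949 for Slc32a1, 1.65 for Slc12a5 and 2.94 for Slc12a2, against a median of 1.68 over the genes tested. Gad1 was steadier than all but 5.14% of tested genes and Gad2 than all but 7.25%, whereas 94.4% of tested genes had a smaller SD than Slc12a2. By mean CPM, Gad1, Gad2 and Abat ranked 43, 334 and 656 among the genes tested, and Slc12a5, Slc12a2 and Slc32a1 ranked 3984, 5068 and 5723, so a higher level went with a smaller SD except for Slc32a1. The highest library was 4.16 times the lowest for Gad2 and 4.55 times for Abat, but 85.4 times for Slc32a1, 121 times for Slc12a5 and 556 times for Slc12a2.

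**Figure D4:**
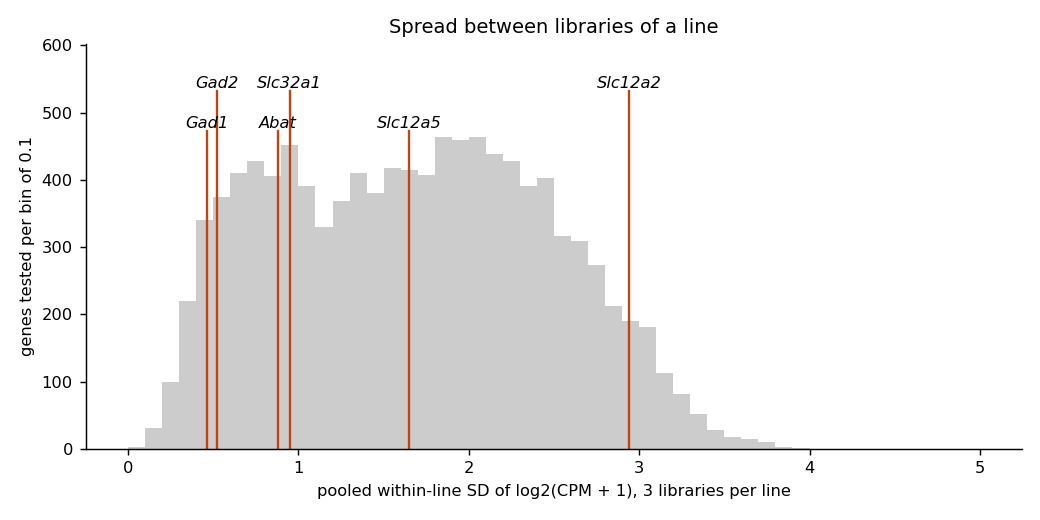
Pooled within-line SD of log2(CPM + 1) for 10728 genes tested (grey, genes per bin of 0.1), with red lines at the 6 genes. Gad1 and Gad2 stand at the low end at 0.461 and 0.524, and Slc12a2 near the high end at 2.94.

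As a description over the 9 libraries, the Pearson correlation of log2(CPM + 1) was 0.761 between Abat and Slc12a2, 0.704 between Slc32a1 and Slc12a5 and 0.672 between Slc12a2 and Slc12a5. Gad1 and Gad2 had 0.15. All points share the libraries and their depth. Among 7676 other tested genes with a mean of at least 20 CPM, those with the pattern most like each gene were Zfp629 (0.938) and Kcnu1 (0.924) for Gad1, Serpini1 (0.937) and Spryd3 (0.921) for Gad2, and Atp5d (0.989) and Samd14 (0.968) for Slc32a1. For Abat they were Rnf13 (0.960) and Clmp (0.959), for Slc12a2 Rrm2b (0.966) and Cwc27 (0.942), and for Slc12a5 Pitpna (0.958) and Sbf2 (0.955). Atp5d was at 18.1, 41.5 and 81.8 CPM in Nkx2.1 libraries, at 243, 245 and 123.4 CPM in SOM libraries and at 279, 285 and 325 CPM in VIP libraries, low where Slc32a1 was low. All of these genes were picked for their likeness out of 7676 genes over 9 libraries, so the likeness is no separate evidence of a relation. The correlation does not compare the size of changes. Zfp629 was at 0, 233 and 0 CPM in the Nkx2.1 libraries, while the highest Gad1 library of all was 2.12 times the lowest.

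Beyond the 6 genes, 8 lists of 70 genes covered GABA reuptake and breakdown, glutamate supply, the GAD cofactor, the vesicular proton pump, other chloride transport and its regulators, and transcription factors of GABAergic identity. Of these, 68 were in the tables, 8 had no read in any library (Slc6a13, Slc6a12, Maob, Slc38a3, Slc38a5, Got1, Slc12a3 and Oxsr1), and 56 were tested. A list gene at 0 on the minus strand of chromosome 9, as Slc38a3 and Oxsr1 are, is not read as silent, because 93.1% of 522 protein-coding genes there were at 0 in all 9 libraries. On the minus strand of chromosome 19, which holds Got1, the share was 58.9%. In edgeR 0 of the 56 passed in any comparison. At an unadjusted p under 0.05, 2 were higher and 6 lower in Nkx2.1 against SOM, 3 higher and 6 lower in Nkx2.1 against VIP, and 4 higher and 3 lower in SOM against VIP. Of all 10728 genes tested, 313 were higher and 899 lower at that level in the comparison of Nkx2.1 with SOM, 615 higher and 1012 lower with VIP, and 497 higher and 253 lower in SOM against VIP. For the list genes the median log2 fold change was -0.23, -0.29 and 0.05 in these comparisons, against -0.0075, 0.0028 and -0.0037 over all genes tested. DESeq2 called 4, 6 and 2 of them, where its shares over all genes were 7.16%, 11.8% and 3.56%.

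On the reuptake and breakdown list, Slc6a11, the GABA transporter GAT-3, named after its values were seen, averaged 6.30 ± 9.77 CPM in Nkx2.1 and 4.73 ± 4.55 CPM in SOM, against 119 ± 39.8 CPM in VIP. DESeq2 called it lower in Nkx2.1 and in SOM than in VIP (adjusted p = 0.034 and 0.0377), and edgeR in neither (adjusted p = 0.320 and 0.634). Aldh5a1, the succinic semialdehyde dehydrogenase that acts after Abat, was named for the same reason and averaged 0.304 ± 0.526 CPM in Nkx2.1, against 60.4 ± 53.5 CPM in SOM and 26.0 ± 21.1 CPM in VIP (DESeq2 adjusted p = 0.00216 and 0.00976, edgeR adjusted p = 0.360 and 0.285).

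On the cofactor and anchoring list, Dnajc5, a synaptic vesicle chaperone, averaged 268 ± 256 CPM in Nkx2.1, 554 ± 141 CPM in SOM and 621 ± 373 CPM in VIP. Its ranges overlapped in every comparison, and no comparison passed in edgeR (adjusted p of at least 0.471).

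For the vesicular proton pump, which drives VGAT, 6 of 7 genes had a log2 fold change below 0 in Nkx2.1 against SOM and 6 of 7 in Nkx2.1 against VIP, 5 of them in both, and none passed in edgeR. Of all 10728 genes tested, 5383 were below 0 in the comparison with SOM and 5339 in that with VIP. The pump subunit Atp6v0a1 was at 339.6, 248 and 61.5 CPM in Nkx2.1, against 776, 889 and 624 CPM in SOM and 712, 469 and 707 CPM in VIP. Every Nkx2.1 library was below every other library, and the log2 fold change was -1.82 ± 0.55 against SOM (adjusted p = 0.317, edgeR) and -1.54 ± 0.54 against VIP (adjusted p = 0.238, edgeR). Atp6v1a, the most abundant subunit, averaged 469.7 ± 219 CPM in Nkx2.1, 845 ± 215.5 CPM in SOM and 552 ± 209 CPM in VIP.

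Among the other cation-chloride cotransporters, 4 of 7 were tested. Slc12a1, the kidney cotransporter NKCC2, had the smallest p of the list, for SOM against VIP, at 0, 0 and 0.114 CPM in SOM, against 48.8, 10.3 and 0 CPM in VIP (adjusted p = 0.740, edgeR). Of the 12 cotransporter kinases and partners tested, 10 had a log2 fold change below 0 in Nkx2.1 against SOM and 9 in Nkx2.1 against VIP. In each comparison 2 were above 0. The counts include values near 0, Neto2 at -0.00019 against SOM and Cab39 at -0.0025 against VIP, named after their values were seen. Neto2 averaged 238 ± 213 CPM in Nkx2.1 and 22.5 ± 9.68 CPM in VIP, with ranges that overlapped. DESeq2 called Neto2 higher in Nkx2.1 than in VIP (adjusted p = 0.0274), and edgeR did not (adjusted p = 0.242). Of all 10728 genes tested, 5383 were below 0 against SOM and 5339 against VIP. Prkcd, a protein kinase C, had no read in the Nkx2.1 and VIP libraries and was at 6.37, 5.18 and 2.63 CPM in SOM (adjusted p = 0.310 for Nkx2.1 against SOM, edgeR). Stk39, the SPAK kinase that phosphorylates NKCC1 and KCC2, was named after its values were seen, at 4.29 ± 1.64 CPM in Nkx2.1, 55.0 ± 14.3 CPM in SOM and 12.6 ± 8.98 CPM in VIP. DESeq2 called Stk39 lower in Nkx2.1 against SOM (adjusted p = 0.00595), and edgeR gave an adjusted p of 0.406.

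On the list of other chloride and bicarbonate transport, the endosomal exchanger Clcn3 averaged 369 ± 253 CPM in Nkx2.1, 383 ± 90.6 CPM in SOM and 384 ± 165 CPM in VIP. Slc4a3, an anion exchanger, was at 18.2, 0 and 0 CPM in Nkx2.1, against 156, 144 and 122.7 CPM in SOM and 73.2, 143 and 111 CPM in VIP. Its adjusted p was 0.459 against SOM and 0.383 against VIP in edgeR, and it passed in both comparisons without Nkx2.1 replicate 1, the one Nkx2.1 library with reads (adjusted p = 0.0184 and 0.014, edgeR). Among the transcription factors of GABAergic identity, Dlx1 averaged 1083 ± 161 CPM in Nkx2.1, 554 ± 94.1 CPM in SOM and 1019.9 ± 395 CPM in VIP. Of the 5 tested, 2 had Nkx2.1 libraries above all SOM libraries, Dlx1 among them, and 2 had them below. Of all 10728 genes tested, 633 lay above and 1505 below in this way. Dlx6, named after its values were seen, averaged 0.286 ± 0.402 CPM in Nkx2.1, 5.32 ± 0.969 CPM in SOM and 29.3 ± 20.3 CPM in VIP. DESeq2 called Dlx6 lower in Nkx2.1 than in VIP (adjusted p = 0.000288), and edgeR did not (adjusted p = 0.233).

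**Figure D5:**
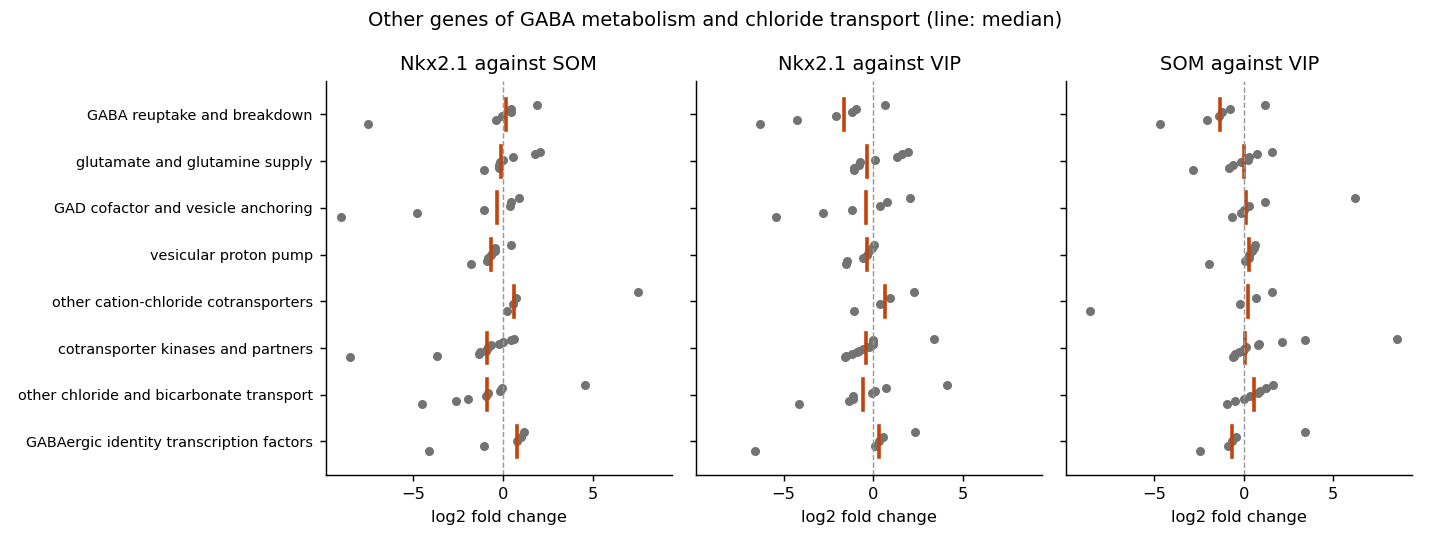
Fitted edgeR log2 fold changes of the 56 tested list genes, 1 grey point per gene and a red bar at the median of each list, the first-named line over the second. The medians of the proton pump list are -0.67 for Nkx2.1 against SOM and -0.35 for Nkx2.1 against VIP, and single genes reach beyond 5 in either direction.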

How the data were processed

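Per the labels' protocols, RNA was taken from 150 hand-picked cells per library. The authors deposited raw read counts for gene symbols in a table for each library. The submitters' processing notes name TopHat2 2.0.9, DESeq2 and mm10. The counting program and strand setting were not given in the sources used. The 5 entries that name no gene held 83.6% to 85.2% of each table's total and were left out.

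The 23319 gene symbols were fitted over all 9 libraries with edgeR 4.0.16 (quasi-likelihood test, TMM, filterByExpr, minimum count 10) in R 4.3.3. The fit covered 10728 genes (6 residual degrees of freedom, common biological coefficient of variation 1.40). Benjamini-Hochberg adjustment ran over these genes, with a threshold of 0.05. The SE was obtained by dividing a log2 value by the square root of its F statistic. Ratios had 0.5 reads added to each gene and were tested by exact permutation of libraries. DESeq2 1.42.0, other scalings, no filter, the replicate number as a block and each library left out were alternatives. The scripts were tested on simulated data. No molecular identifiers are described, so floors in reads cover counting error only.

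The 6 genes, the lists and the ratios were chosen with earlier results of these data known. Named list genes are the most abundant and the one with the smallest p in each list, and exceptions are stated. Some of the genes named by this rule are not reported here. Genes most like a member are the 2 with the highest Pearson correlation.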

Additional observations from a re-analysis of the deposited data

How the results depend on the processing

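DESeq2 called 1 of the 6 genes in Nkx2.1 against SOM and 1 in Nkx2.1 against VIP where edgeR called 0, and 4, 6 and 2 list genes where edgeR called 0. Over all genes, edgeR called 10 for Nkx2.1 against SOM, 33 for Nkx2.1 against VIP and 8 for SOM against VIP. DESeq2 called 768, 1262 and 382, a fit of only the groups compared 5, 20 and 32, and no filter on low counts 21 for SOM against VIP. The cause was not tested. Without scaling beyond reads in genes the median log2 fold change of all genes moved by -0.16 for Nkx2.1 against SOM and -0.19 for Nkx2.1 against VIP. With that setting Gad1 turned to -0.060 for Nkx2.1 against SOM, Gad2 to -0.00055 and Abat to -0.15 for Nkx2.1 against VIP, and Slc12a5 to -0.031 for SOM against VIP, where it was -0.041 with RLE size factors and in DESeq2.

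Deviations of same-numbered libraries correlated only weakly, at -0.033 to 0.064 over 9 pairs, where others ran from -0.065 to 0.033. The SOM and VIP libraries numbered 1 and those numbered 2, at 0.064 and 0.042, lay above every differently numbered pair. These values cannot show whether libraries shared a batch, because the labels name none. With the replicate block 4, 11 and 4 genes were called in the comparisons, Slc12a2 turned to -3.55 for Nkx2.1 against SOM, Abat to -0.014 for Nkx2.1 against VIP, and the adjusted exact permutation p of the Gad1 to Gad2 ratio was 0.167.

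With each library left out, genes called ran from 0 to 37, 12 to 48 and 3 to 17, list genes from 0 to 1, 0 to 1 and 0 to 0, and the adjusted permutation p from 0.0214 to 0.536 for the Slc12a2 to Slc12a5 ratio and from 0.0214 to 0.327 for Gad1 to Gad2. Log2 values ran from -0.32 to 0.27 for Gad1 and -0.77 to 0.12 for Abat in Nkx2.1 against SOM. In Nkx2.1 against VIP they ran from -0.64 to 0.081 for Gad1, -0.095 to 0.67 for Gad2 and -0.45 to 0.48 for Abat, and in SOM against VIP from -0.029 to 0.76 for Abat and -0.40 to 0.99 for Slc12a5. Slc12a2 ran from -4.99 to 2.24, -4.90 to 5.16 and -0.46 to 3.51. The log2 difference of the Gad1 plus Gad2 to Abat ratio ran from -0.17 to 0.71, -0.74 to 0.67 and -1.08 to 0.34. Slc32a1 kept its sign in every setting run. Few cells, 3 libraries per line and uneven reads of Slc12a2, from 4 to 2982 within the Nkx2.1 line, limit what could be detected.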
